A study of Populus deltoides x Populus x canadensis with 6 samples.

Results

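The secondary wall cellulose synthase genes of poplar were followed in stem RNA of wild type hybrid poplar and of a brassinosteroid receptor mutant. These are 5 genes, CesA4, CesA7-A, CesA7-B, CesA8-A and CesA8-B, taken by their identifiers in the Populus trichocarpa numbering (Potri.002G257900.v4.1, Potri.006G181900.v4.1, Potri.018G103900.v4.1, Potri.011G069600.v4.1 and Potri.004G059600.v4.1), out of 35792 rows in the deposited table. All 5 identifiers were in the table, and all 5 passed the filter on low counts, as did 27382 rows in all. The deposited table gives identifiers without gene names, so the CesA names rest on the naming of those identifiers in P. trichocarpa.

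The plants were the hybrid poplar Nanlin 895 (Populus deltoides × P. euramericana), 45 days old, kept in a greenhouse under 16 h of light and 8 h of dark. One group was wild type (WT below) and the other carried the genotype pdbri1-1;2;3;6, in which 4 members of the BRI1 gene family are mutated. Both groups share the clone background, the age and the growth conditions. Each of the 3 libraries per genotype was a pool of 30 plants, made from 2 cm of leafless basal stem. The pools were described as biological replicates. The edgeR p-values below set a change against a spread between libraries that is estimated partly from all genes tested. They do not rest on the spread between the pools of the single gene alone. How the mutations were made, whether the mutant line is a single clone, and whether the mutated receptor genes were altered in RNA were not analysed here. Marker genes were to be matched by product name, and no product names were at hand, so the stem label was left unchecked against markers of other cell types.

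Cellulose is spun into the plant cell wall by membrane complexes of cellulose synthase (CesA) catalytic subunits. Different CesA classes build the thin primary wall of growing cells and the thick secondary wall of wood vessels and fibres, and in Arabidopsis the secondary wall complex needs the CESA4, CESA7 and CESA8 classes together, since loss of any one of them gives collapsed xylem. In poplar the CesA7 and CesA8 classes each have an A and a B copy, while CesA4 is a single gene, and all are known as marker genes of developing wood. BRI1 is the receptor at the cell surface that perceives brassinosteroids, steroid hormones of plants with known effects on xylem formation.

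All 5 genes were lower in the mutant stem. CesA4, CesA8-B, CesA7-A and CesA7-B stood at 20.5%, 21.5%, 23.6% and 28.0% of the wild type level, while CesA8-A stood at 45.9%. The levels below are FPKM, counts scaled by gene length and library total as the authors deposited them. Fold changes are from edgeR's quasi-likelihood test with TMM scaling and Benjamini-Hochberg adjustment over all 27382 genes, and the percentages above come from these fold changes. The TMM factors were 0.9569 to 0.9597 in the wild type and 1.041 to 1.047 in the mutant libraries. The falls given as fold changes are therefore larger than the ratios of the FPKM means.

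CesA4, the single-copy class (IRX5 in Arabidopsis) and the most abundant of the 5 genes, had 19.0, 17.3 and 19.0 FPKM in the wild type libraries 1, 2 and 3, from 1277, 1325 and 1498 counts. In the mutant libraries it had 3.54, 4.63 and 4.25 FPKM, from 275, 308 and 292 counts. The highest mutant library was thus far under the lowest wild type library, and mutant library 1 was the lowest of all. The mean fell from 18.4 ± 0.963 to 4.14 ± 0.556 FPKM (SD, n = 3 each). Its log2 fold change was -2.28 (SE 0.07, 95% interval -2.42 to -2.15, adjusted p = 2.66e-28, edgeR), a 4.87-fold fall. The gene lies on chromosome 2 by its identifier and has a length of 3745 bp, which, like the other lengths given here, was computed from the deposited counts and FPKM.

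The CesA7 class is the partner that in Arabidopsis is encoded by the IRX3 locus. CesA7-A, a gene of 3518 bp on chromosome 6, had 6.65, 5.76 and 5.59 FPKM in WT and 1.52, 1.55 and 1.53 FPKM in the mutant. Its mutant libraries were nearly alike, and wild type library 1 stood above the other two. The counts behind them were 420, 414 and 415 in WT and 111, 97 and 99 in the mutant. The log2 fold change was -2.08 (SE 0.10, 95% interval -2.29 to -1.88, adjusted p = 7.62e-24, edgeR), a 4.24-fold fall. CesA7-B, its copy of 3531 bp on chromosome 18, had 8.04, 7.84 and 7.83 FPKM in WT and 2.18, 2.55 and 2.52 FPKM in the mutant. Wild type libraries were close together here and mutant library 1 was the lowest. Counts were 510, 566 and 583 in WT and 160, 160 and 163 in the mutant. The fall was 3.57-fold, with a log2 fold change of -1.84 (SE 0.08, 95% interval -2.00 to -1.67, adjusted p = 8.5e-25, edgeR).

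The CesA8 class, the counterpart of Arabidopsis IRX1, held the gene with the smallest fall and one of the larger falls. CesA8-A, a gene of 4147 bp on chromosome 11, had 6.31, 5.24 and 5.18 FPKM in WT and 2.78, 2.88 and 2.68 FPKM in the mutant. Groups did not overlap, and wild type library 1 was again the highest. Counts were 470, 444 and 453 in WT and 239, 212 and 204 in the mutant. Its log2 fold change was -1.12 (SE 0.09, 95% interval -1.30 to -0.95, adjusted p = 3.35e-16, edgeR), a 2.18-fold fall. CesA8-B, its copy of 3741 bp on chromosome 4, had 11.3, 10.3 and 11.2 FPKM in WT and 2.38, 2.97 and 2.35 FPKM in the mutant. Mutant library 2 stood above the other two mutant libraries and still far under the wild type. Counts were 759, 790 and 883 in WT and 185, 197 and 161 in the mutant. The fall was 4.66-fold, with a log2 fold change of -2.22 (SE 0.08, 95% interval -2.38 to -2.06, adjusted p = 2.74e-29, edgeR).

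**Figure D1:**
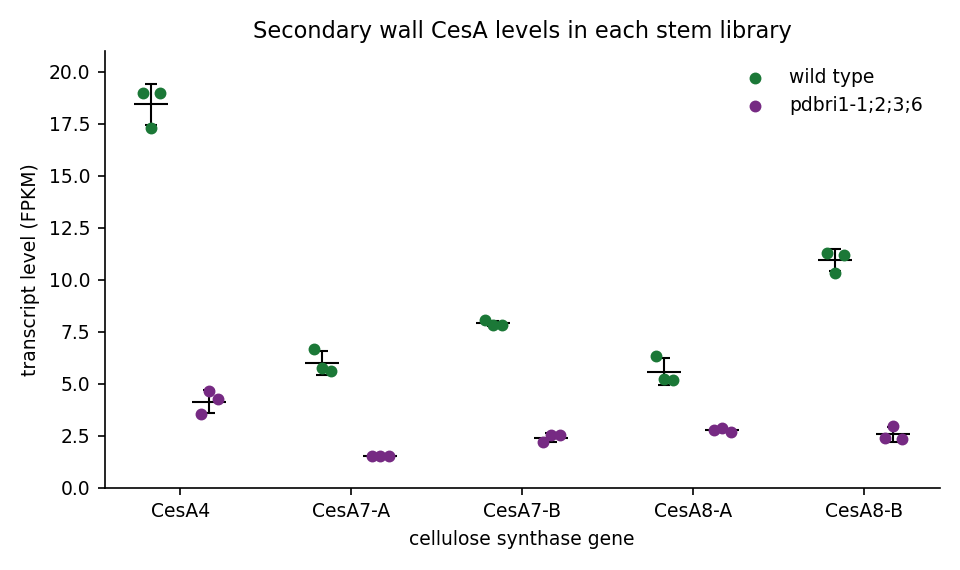
Transcript level in FPKM (vertical axis, from 0) of each CesA gene in each stem library, with green points for the 3 wild type and purple points for the 3 mutant libraries; horizontal bars are group means and whiskers are SD. In each gene all mutant points lie under all wild type points, from 3.54 to 4.63 against 17.3 to 19.0 FPKM for CesA4 and from 2.68 to 2.88 against 5.18 to 6.31 FPKM for CesA8-A.

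The fall of the CesA genes stood against a background in which a large part of the transcriptome differed. Of all genes tested, 64.1% passed an adjusted p under 0.05 in either direction by edgeR and 31.0% passed it as lower in the mutant, so that 5 of 5 genes called lower is one of many such calls. A call with a fall of at least 2-fold was found for 5.19% of the genes tested and for all 5 CesA genes, but CesA8-A came just short of 2-fold (log2 fold change -1.0) when library totals replaced the TMM factors. When edgeR's glmTreat was used to test for falls larger than 2-fold, an alternative chosen after seeing the data, 3.34% of genes passed. CesA4, CesA7-A, CesA7-B and CesA8-B were among them, with adjusted p-values from 1.85e-20 to 7.56e-13 (edgeR), and CesA8-A was not (adjusted p = 0.17, edgeR). The median log2 fold change was -2.08 over the 5 genes and 0.01 over all genes tested. Levels did not overlap between genotypes for 5 of 5 CesA genes, nor for 67.1% of all genes tested, with the mutant lower in 32.6%. In bulk stem libraries, fewer cells that build secondary walls and less CesA RNA in each such cell cannot be told apart.

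The size of the fall placed 4 of the genes near the lower end of the table. Called falls at least as large as that of CesA4 were found for 276 genes (1.01% of those tested, the gene itself included). The corresponding numbers were 300 (1.10%) for CesA8-B, 353 (1.29%) for CesA7-A and 464 (1.69%) for CesA7-B. For CesA8-A the number was 1173 (4.28%). These places describe the genes and are no test of the class.

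**Figure D2:**
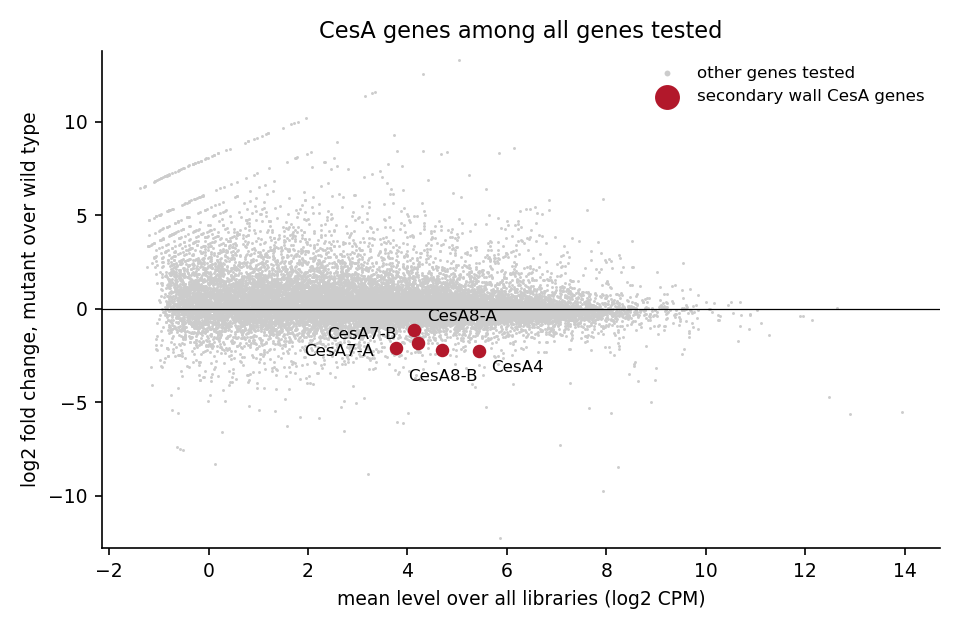
Log2 fold change, mutant over wild type (vertical axis), against mean level in log2 CPM (horizontal axis) for all 27382 genes tested, with the CesA genes in red. The CesA genes lie in the middle range of level and toward the lower edge of the grey cloud, with CesA8-A at -1.12 nearest to 0 and CesA4 at -2.28 farthest from it.

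**Figure D3:**
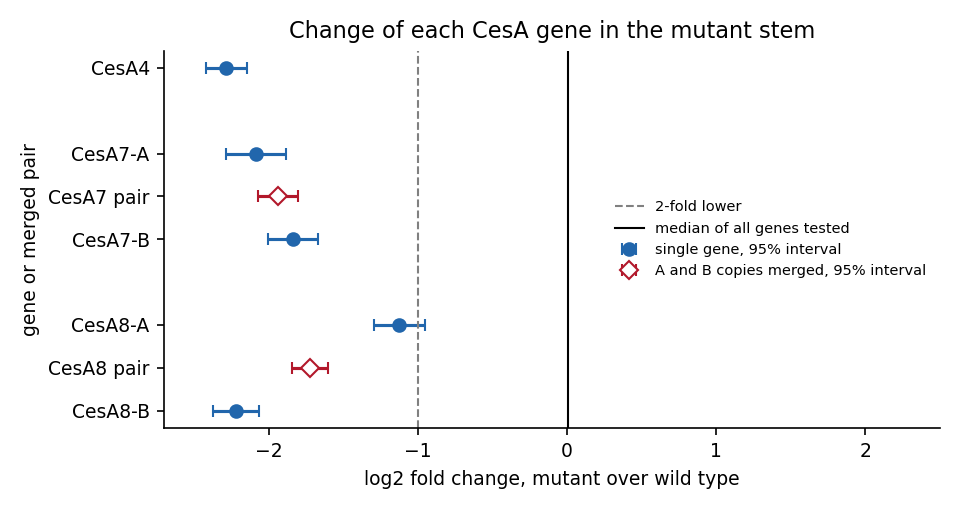
Log2 fold change, mutant over wild type (horizontal axis), of each CesA gene (filled circles) and of the merged CesA7 and CesA8 pairs (open diamonds), with 95% intervals as whiskers. The dashed line marks a 2-fold fall and the solid line the median of all genes tested (0.01); the interval of CesA8-A alone reaches past the dashed line.

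The estimated change was not of the same size in the 5 genes. All 10 pairs of genes were compared by the difference of their log2 fold changes. The 95% intervals were built from the standard errors of the fit on the assumption that the errors of the genes are independent. They were not adjusted for the 10 comparisons. For 6 pairs the interval left out 0, and 4 of these contain CesA8-A. CesA8-A fell less than CesA4 by 1.16 on the log2 scale (difference of CesA4 minus CesA8-A -1.16, interval -1.38 to -0.94). Against its own copy CesA8-B it fell less by 1.10 (interval 0.86 to 1.33). The differences from CesA7-A (-0.96, interval -1.23 to -0.70) and CesA7-B (-0.71, interval -0.95 to -0.47) were in the same direction. CesA7-B fell less than CesA4 (difference of CesA4 minus CesA7-B -0.45, interval -0.66 to -0.23) and less than CesA8-B (difference 0.38, interval 0.15 to 0.61).

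The other 4 pairs were not separated. CesA4 and CesA8-B differed by -0.06 in log2 fold change (interval -0.27 to 0.14), CesA4 and CesA7-A by -0.20 (interval -0.44 to 0.04), CesA7-A and CesA8-B by 0.13 (interval -0.12 to 0.39) and CesA7-A and CesA7-B by -0.25 (interval -0.51 to 0.01). The log2 ratio of FPKM within a library did not overlap between genotypes for 7 of the 10 pairs, the 6 above and CesA7-A to CesA7-B. Levels of single genes did not overlap for 67.1% of all genes tested. How many pairs of other genes are separated by interval or by ratio was not computed. The counts of 6 and 7 pairs therefore describe the CesA genes and do not set them apart. For each of the 7 pairs the two-sided exact permutation p was 0.1, the smallest that 3 against 3 libraries allow. It was 0.143 after Benjamini-Hochberg adjustment over the 10 pairs, so no ratio could pass 0.05 by this test.

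The balance between the CesA8 copies differed between genotypes. In the wild type CesA8-A was at 0.463 to 0.559 of the FPKM of CesA8-B, and in the mutant at 0.971 to 1.17. As a share of the pair's FPKM, CesA8-A made up 35.8%, 33.6% and 31.6% in the wild type libraries and 53.8%, 49.3% and 53.3% in the mutant libraries. The mean share was thus 33.7% ± 2.10 against 52.1% ± 2.51 (SD, n = 3 each), a difference of 18.4 percentage points, with no overlap (two-sided exact permutation p = 0.1, the smallest possible, and 0.125 adjusted over 5 shares). Within the CesA7 pair, CesA7-A made up 45.3%, 42.3% and 41.7% in WT and 41.0%, 37.8% and 37.9% in the mutant. That difference was -4.17 percentage points, and the lowest wild type library was only just above the highest mutant library (exact permutation p = 0.1, adjusted 0.125). A share within a library does not depend on the scaling between libraries.

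How the authors' counting split reads between the A and B copies is not given in the sources used here, and the separate values of the copies are uncertain where their sequences are alike. Merging the copies takes away the division of counted reads between them, but not the effect of any reads left uncounted because they matched both. When the counts of each pair were merged into one gene (chosen after seeing the data), CesA7 fell by 3.83-fold (log2 fold change -1.94, SE 0.07, adjusted p = 5.37e-30, edgeR) and CesA8 by 3.30-fold (log2 fold change -1.72, SE 0.06, adjusted p = 5.03e-29, edgeR), against 4.87-fold for CesA4.

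As a pool, the 5 genes made up less of the stem RNA in the mutant, with smaller differences in how the classes divided it. The summed FPKM was 51.3, 46.5 and 48.7 in WT and 12.4, 14.6 and 13.3 in the mutant. Its mean fell from 48.8 ± 2.41 to 13.4 ± 1.10 (SD, n = 3 each), to 27.5% of the wild type on the deposited FPKM scale, which uses library totals. CesA4 held 37.0%, 37.2% and 38.9% of this sum in WT and 28.5%, 31.8% and 31.9% in the mutant, a difference of -6.99 percentage points. The CesA8 pair held 34.3%, 33.5% and 33.6% in WT and 41.6%, 40.1% and 37.7% in the mutant, a difference of 6.00 points. Neither share overlapped between genotypes (two-sided exact permutation p = 0.1 for each, adjusted 0.125). For the CesA7 pair the shares were 28.6%, 29.3% and 27.5% in WT and 29.9%, 28.2% and 30.4% in the mutant. These overlapped, with a difference of 0.991 points (exact permutation p = 0.3, adjusted 0.3). Without wild type library 3 that difference was 0.516 points, without mutant library 3 it was 0.531 points, and without mutant library 2 it was 1.65 points.

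**Figure D4:**
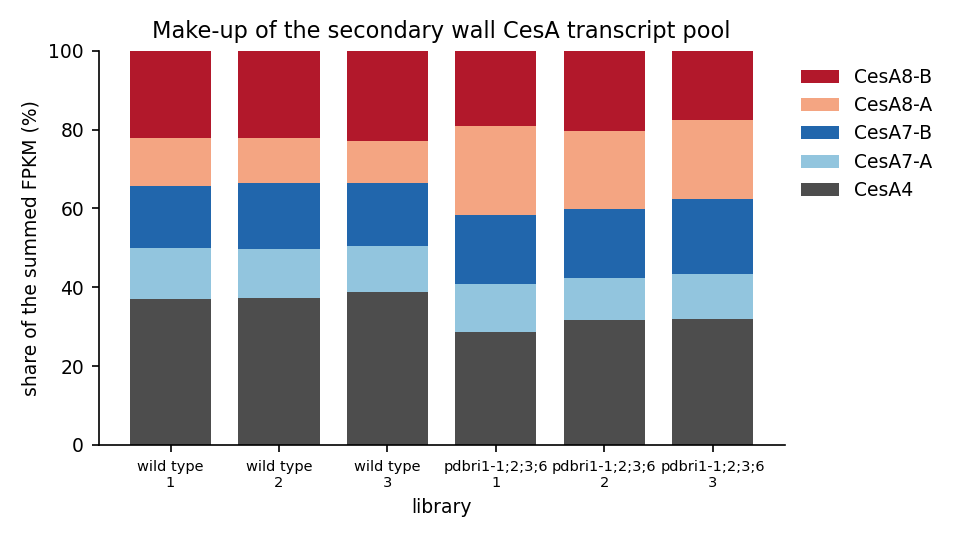
Share of the summed CesA FPKM (vertical axis, percent) held by each gene in each of the 6 libraries (horizontal axis). The CesA4 band is narrower in all mutant libraries, at 28.5% to 31.9% against 37.0% to 38.9% in the wild type, and the CesA8-A band is wider. Of the CesA8 pair alone, a share not on this axis, CesA8-A makes up 49.3% to 53.8% in the mutant against 31.6% to 35.8% in the wild type.

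The order of levels differed between genotypes below CesA4, which came first in both. In the wild type, CesA4 was followed by CesA8-B, CesA7-B, CesA7-A and CesA8-A in FPKM, at means of 18.4, 10.9, 7.90, 6.00 and 5.58. The first 3 steps of this order had no overlap between libraries. CesA7-A and CesA8-A overlapped in range, although CesA7-A was the higher in each of the 3 wild type libraries. In the mutant the order was CesA4, CesA8-A, CesA8-B, CesA7-B and CesA7-A, at 4.14, 2.78, 2.56, 2.42 and 1.54 FPKM. There CesA4 at the top and CesA7-A at the bottom stood clear of their neighbours in the order. Between them, CesA8-B overlapped with CesA8-A above it and with CesA7-B under it, each step holding in 2 of 3 libraries, while CesA8-A and CesA7-B did not overlap.

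Against all tested genes ranked by mean FPKM, CesA4 was within the top 25% in wild type libraries and the top 69.3% in mutant libraries. CesA8-B went from the top 39.7% to the top 77.9%, CesA7-B from 49.3% to 78.8%, CesA7-A from 56.4% to 85.3% and CesA8-A from 58.1% to 76.5%. In the wild type stem sample the genes thus ran from the top 25% (CesA4) to just under the middle of the ranking (58.1%, CesA8-A).

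Replicates were close. The coefficient of variation of FPKM over the wild type libraries was 1.54% (CesA7-B) to 11.4% (CesA8-A), and over the mutant libraries 1.08% (CesA7-A) to 13.6% (CesA8-B). Library totals were 17954948 to 21096052 counts in WT and 17752822 to 20756647 in the mutant. The smallest count of any CesA gene was the 97 of CesA7-A in mutant library 2, with a 95% exact Poisson interval of 78.7 to 118 that covers counting error only. For the 510 of CesA7-B in wild type library 1 the interval was 467 to 556. The lowest coefficients of variation, 1.08% and 1.54%, were thus smaller than counting error, and do not measure the spread between pools. The same holds for the 3.58% of CesA8-A in the mutant, where the 204 of library 3 had an interval of 177 to 234. The other coefficients hold counting error together with the spread between pools. The largest count was the 1498 of CesA4 in wild type library 3, with an interval of 1423 to 1576.

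Other genes with the same profile over the libraries were listed by identifier. Likeness was the root mean square difference, over the 6 libraries, between a gene's log2 CPM centred on its own mean and the average of the centred CesA profiles, among 15962 genes at least as abundant as the lowest CesA gene. The nearest was Potri.017G033600.v4.1 at 0.055 log2 units, with 20.9 ± 1.11 FPKM in WT and 6.13 ± 0.533 in the mutant (SD, n = 3 each). Next came Potri.019G018600.v4.1 (0.067), Potri.006G199500.v4.1 (0.073), Potri.005G071100.v4.1 (0.078) and Potri.001G342600.v4.1 (0.083). Their log2 fold changes ran from -2.02 to -1.80, and their wild type means from 20.9 to 60.1 FPKM. The table gives them no names. The CesA genes themselves stood at 0.063 (CesA7-B), 0.104 (CesA7-A), 0.171 (CesA8-B), 0.202 (CesA4) and 0.397 (CesA8-A) from their own average. Each of them is part of that average, which brings it nearer. With 6 libraries in 2 groups such a profile is mostly the difference between genotypes. Nearer to the average were 337 genes than CesA8-A, 104 than CesA4, 74 than CesA8-B, 21 than CesA7-A and 1 than CesA7-B.

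The genes next to the CesA loci did not share one direction. The 5 nearest tested genes on each side, by identifier number, made 50 neighbours, of which 12 were called lower and 16 higher (adjusted p under 0.05, edgeR; 31.0% and 33.1% of all genes tested), with a median log2 fold change of 0.10. Around CesA4, neighbours had log2 fold changes of -0.70 to 0.36, and around CesA7-A of -0.44 to 0.77. Those of CesA8-A ran from -0.50 to 1.90. CesA7-B had 5 neighbours called lower, all on one side, down to -3.63 for Potri.018G104600.v4.1, and 2 called higher. CesA8-B stood among genes that were higher in the mutant. None of its 10 neighbours was called lower and 7 were called higher, among them Potri.004G059900.v4.1, at 7.60 FPKM in WT and 60.8 in the mutant (log2 fold change 2.87, adjusted p = 3.33e-34, edgeR). Identifier order was taken as gene order by the naming convention, and its fit to the genome of the hybrid was not checked.

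**Figure D5:**
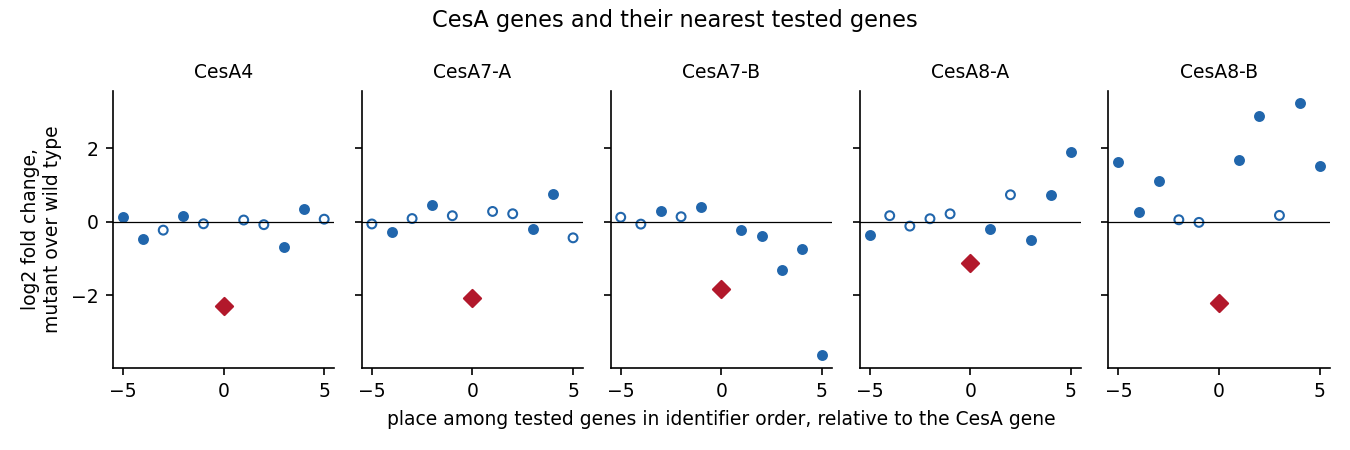
Log2 fold change, mutant over wild type (vertical axis), of each CesA gene (red diamonds) and of the 5 nearest tested genes on each side in identifier order (horizontal axis); filled circles passed an adjusted p under 0.05 and open circles did not. The neighbours of CesA4 and CesA7-A lie near 0, those on one side of CesA7-B fall to -3.63, and those of CesA8-B reach 3.23.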

How the data were processed

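RNA was sequenced from 6 stem libraries, 3 per genotype. The authors deposited whole-number counts for every gene beside FPKM values, both units per the file headers. The aligner, counting tool, genome build and strand setting are not given in the sources used. Gene lengths were computed from the count, the FPKM and the library total. All columns of per-sample values were matched to samples by title, and 0 were unused.

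Counts were tested over the whole table with edgeR 4.0.16 in R 4.3.3 (filterByExpr min.count 10, min.total.count 15, TMM factors, robust quasi-likelihood F test, no block, Benjamini-Hochberg adjustment). Standard errors were computed as the log2 fold change over the square root of F. CPM are TMM-scaled, with a prior count of 2 on the log scale. Alternatives used limma 3.58.1 and DESeq2 1.42.0. Replicate pairs differed by chi-square statistics of 1.84 to 2.62 per gene, where sampling noise gives about 1. Each library was counted separately because the pools were described as biological replicates. The chi-square statistics cannot test that description.

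The CesA genes, lists and rules were chosen with earlier results of these data known. Genes to be named were the 5 CesA genes and the 5 nearest by profile; neighbours in identifier order were added after the data were seen. Lists of other wall, cell type and receptor genes were to be matched by product name, and promoter motifs by sequence. With no names in the table and no reference annotation or sequences at hand, the lists had 0 matched members. Neither lists nor motifs are analysed here.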

Additional observations from a re-analysis of the deposited data

How the results depend on the processing

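The fold change of CesA4 was recomputed under 18 alternatives and that of each other CesA gene under 17, since merging the A and B copies leaves no value for a single copy. Of these 86 values, 85 kept their direction and their side of the threshold. The exception was CesA8-A when tested against a 2-fold change, with the same log2 fold change of -1.12 and an adjusted p of 0.17 (edgeR). That test also left 3560 genes called in the whole table instead of 17558, since it is stricter by construction. It keeps the fold changes of the main fit, and merging the pairs leaves the counts of CesA4 as they were. The direction of those values was thus fixed in advance. Leaving out each library in turn gave log2 fold changes of -2.38 to -2.17 for CesA4, -2.14 to -2.01 for CesA7-A, -1.88 to -1.76 for CesA7-B, -1.18 to -1.03 for CesA8-A and -2.34 to -2.17 for CesA8-B, with 16605 to 17115 genes called. With library totals in place of TMM factors, CesA8-A stood at -1.0, just short of 2-fold, and CesA7-A at -1.96. With limma on log2(FPKM + 1) they stood at -0.80 and -1.46, and on log2(FPKM + 0.1) at -0.974 and -1.895. FPKM also rest on library totals, and the pseudocount pulls low levels together, so the values on FPKM hold both effects. Without each library in turn, the CesA8-A share of its pair was 17.4 to 19.9 percentage points higher in the mutant, the CesA7-A share differed by -5.24 to -3.09 points, the CesA7 pair's share of the sum differed by 0.516 to 1.65 points, and the summed level stood at a ratio of 0.263 to 0.286. With all libraries that ratio was 0.275 on the deposited FPKM and 0.253 on TMM-scaled FPKM.

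The genotypes share only a replicate number. Same-numbered libraries had correlations of their deviations of -0.0225 to -0.0045, and with the replicate block the log2 fold change of CesA8-A was -1.13 and 17334 genes were called. With 97 to 1498 counts per gene and library, observed differences between CesA genes smaller than the half-width of their intervals could not be told from 0 by those intervals. The size of a true difference that would be missed was not computed.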
